A study of Homo sapiens with 18 samples.

Results

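The genes described here serve protein uptake and the brush border in the kidney proximal tubule. They were fixed by name as LRP2, CUBN, AMN, DAB2, GGT1, DPP4, MME, ANPEP, ALPL and GATM, and every row of the unnormalized probe table with exactly such a name was taken, which gave 10 genes with 16 probes among 38275 names and 48803 probes. The samples were 18 flasks of HK-2 cells, a single immortalised line of human proximal tubule epithelium, with 1 Illumina bead array per flask. The study treated them with transforming growth factor beta 1 (TGF-beta1), which drives fibrosis, and with C-peptide, the fragment cut from proinsulin. The 6 groups of 3 flasks were unsupplemented controls at 48 h and at 18 h, TGF-beta1 alone (2 ng/ml) over 48 h, C-peptide alone (5 nM) over either 48 h or 18 h, and the combination at the same doses over 48 h. All groups shared passages 18 to 30, a period of 48 h in medium with 5 mM glucose, and serum starvation overnight before treatment. The descriptions of TGF-beta1 replicates 2 and 3 end the name of the factor in 2 and 3, and they stayed with the TGF-beta1 group that their titles give.

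In the proximal tubule, filtered proteins bind the large receptors megalin (LRP2) and cubilin (CUBN) on the apical membrane. Amnionless (AMN) carries cubilin to the surface, and the adaptor DAB2 links the receptors to clathrin-coated pits. Beside this uptake system the brush border carries enzymes that face the lumen: the peptidases DPP4, MME (neprilysin) and ANPEP (aminopeptidase N), the glutathione-cleaving GGT1 and the phosphatase ALPL. GATM, a mitochondrial enzyme abundant in this segment, catalyses the first step of creatine synthesis.

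The uptake receptors were not detected in these cells, whereas their adaptor was. A probe counted as detected on an array at a detection p under 0.01, and 14580 to 15818 probes per array met this. LRP2, CUBN, AMN and ANPEP were detected on 0 of 18 arrays. The intensity of LRP2 ran from -5.1 to 3.4 units after the background subtraction, that of CUBN from -4.5 to 5.4, that of AMN from -2.0 to 8.3 and that of ANPEP from -6.9 to 6.3. At a looser detection p under 0.05, AMN was detected on 1 array and the other 3 genes on 0. These values bound the signal of the probes only, and no change was tested for these 4 genes.

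DAB2, GGT1, DPP4 and GATM each had a probe detected on all 18 arrays. DAB2 was read by 2 such probes, with intensities of 216.8 to 1631 and 99.8 to 632.4 units. GGT1 had 2 detected probes, at 179.4 to 380.8 and 140.9 to 307.6 units, and 1 more detected on 0 arrays. GGT1 has closely similar relatives on chromosome 22, and the probes were not matched to sequence here. MME was detected by 1 of its 4 probes, on 16 of 18 arrays, and the other 3 probes were detected on 0. ALPL was detected on 5 arrays, which were 2 of 3 with TGF-beta1 and 3 of 3 with both agents, so it entered the tests only through the groups in which it was high. At the looser detection p under 0.05, the ALPL probe and the detected MME probe were each detected on all 18 arrays. In all, 8 of 16 probes and 6 of 10 genes passed the filter of detection on at least 3 arrays. Just inside the detection limit lay ALPL on TGF-beta1 replicate 3, with a deposited detection value of 0.00922 as a p, and just outside it MME on the same array, with 0.01054.

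**Figure D1:**
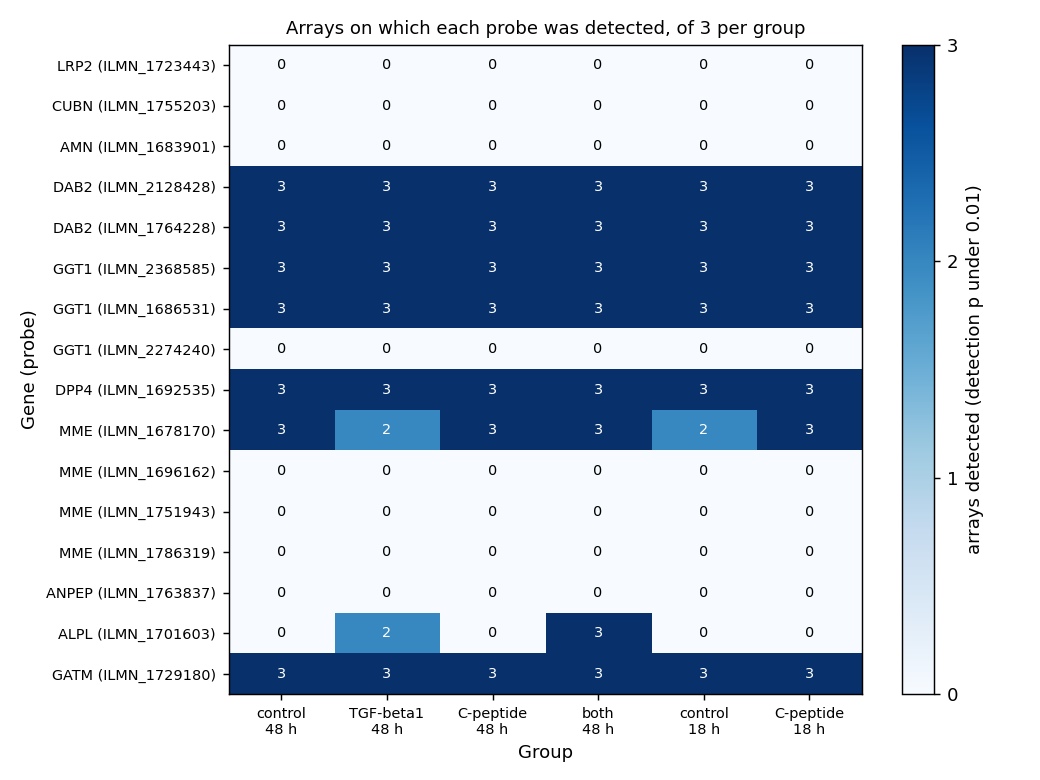
Number of arrays, of 3 per group, on which each of the 16 probes (rows) was detected in each group (columns), with darker blue for more arrays. The 6 probes detected everywhere belong to DAB2, GGT1, DPP4 and GATM, ALPL was detected only with TGF-beta1 or both agents, and 8 probes were detected on 0 arrays.

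The label of the cells was checked against 12 markers of the proximal tubule. The bicarbonate cotransporter SLC4A4 and the transcription factor PAX8 were detected on 18 arrays and the amino acid transporter subunit SLC3A1 on 12, whereas 9 were detected on 0, among them LRP2, CUBN, AQP1, SLC34A1, SLC5A2, SLC22A6, SLC22A8 and HNF4A. The table headers number the arrays in an unbroken run, which was cut here into 3 consecutive sets of 6. The first set holds the 48 h controls and TGF-beta1, the second C-peptide for 48 h and both agents, and the third the 18 h groups. Whether a set was a chip or a batch is not stated. TGF-beta1 against control, both agents against C-peptide and C-peptide against control at 18 h therefore lie within a set. In the other comparisons of 2 groups the group and the set cannot be told apart. Inside a set each group holds 3 consecutive numbers, so there the group and the order of the arrays cannot be told apart either. The interaction of the agents is the difference of 2 comparisons that each lie within a set.

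TGF-beta1 for 48 h lowered DAB2, DPP4, GATM and MME, and ALPL was higher. Of the 6 tested genes, 4 fell and 1 was higher at an adjusted p under 0.05 (limma with Benjamini-Hochberg adjustment over 12484 genes), where 45.1% of all genes were called, 23.2% lower and 21.9% higher. The groups did not overlap for 6 of 6 genes, against 58.5% of all genes. The median change of the 6 genes was -0.83 on the log2 scale, beside -0.0058 over all genes. These counts and this median hold ALPL, whose entry into the test depended on its level with TGF-beta1. In these bulk samples fewer cells of a type and less RNA per cell cannot be told apart.

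DAB2, the endocytic adaptor, showed the largest change of the set. Its normalized log2 intensity was 10.32, 10.25 and 10.27 in the 48 h controls and 8.73, 8.58 and 8.53 with TGF-beta1. Every treated flask lay far below every control. The fall was 1.66 on the log2 scale, or 3.17-fold (SE 0.10, n = 3 arrays per group, limma adjusted p = 3.69e-11), and 1.1% of the tested genes had a lower value. The second DAB2 probe fell by 1.53 (SE 0.11, adjusted p = 7.24e-10, limma), and over the 18 arrays both probes ran together (Pearson r = 0.99, Spearman rho = 0.85, as a description across arrays that share groups).

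DPP4, the dipeptidyl peptidase of the brush border, stood at 8.23, 8.17 and 8.03 in the controls and at 6.78, 7.06 and 6.75 with TGF-beta1, so that the groups lay apart. It fell by 1.28 on the log2 scale, or 2.43-fold (SE 0.12, adjusted p = 3.55e-08, limma). MME, which cleaves small peptides, stood at 5.93, 6.38 and 6.35 in the controls and at 5.82, 5.70 and 5.51 with TGF-beta1, the last of these not detected. The highest treated flask was only just under the lowest control. MME fell by 0.55 (SE 0.18, adjusted p = 0.0181, limma), and the call was lost without control replicate 2 (adjusted p = 0.0770), control replicate 3 (adjusted p = 0.0711) or TGF-beta1 replicate 3 (adjusted p = 0.0802).

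GGT1, which cleaves extracellular glutathione, stood at 8.18, 8.29 and 8.40 in the controls and at 8.07, 8.01 and 8.11 with TGF-beta1. The groups did not overlap, but the difference of -0.23 (SE 0.11, 95% interval -0.46 to 0.0051, adjusted p = 0.104, limma) did not pass. It did pass when only the arrays of these 2 groups were fitted (adjusted p = 0.0392) and with median scaling (-0.30, adjusted p = 0.0476). The second GGT1 probe differed by -0.25 (SE 0.12, adjusted p = 0.0930, limma), and the probes correlated over the 18 arrays at r = 0.87.

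ALPL, the tissue-nonspecific alkaline phosphatase, moved the other way from a signal that did not meet the detection p under 0.01. It stood at 4.99, 4.94 and 4.75 in the controls, none of them detected, and at 5.92, 5.14 and 5.53 with TGF-beta1, with replicate 2 not detected. All treated flasks were higher than all controls. Because the controls give only an upper limit, the change is stated as at least 1.12-fold. This is the mean of the treated arrays over the lowest signal of a detected probe on each control array. TGF-beta1 replicate 2 entered that mean at its measured value although not detected, so the bound is not strict. The fit gave an adjusted p of 0.00319 (limma), but ALPL was tested only because it was detected in the groups with TGF-beta1, so its call here and in the comparisons of both agents is a description.

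GATM, the creatine synthesis enzyme, stood at 7.55, 7.78 and 7.73 in the controls and at 6.64, 6.57 and 6.50 with TGF-beta1. The groups lay apart, and GATM fell by 1.12 on the log2 scale, or 2.17-fold (SE 0.10, adjusted p = 3.08e-08, limma).

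**Figure D2:**
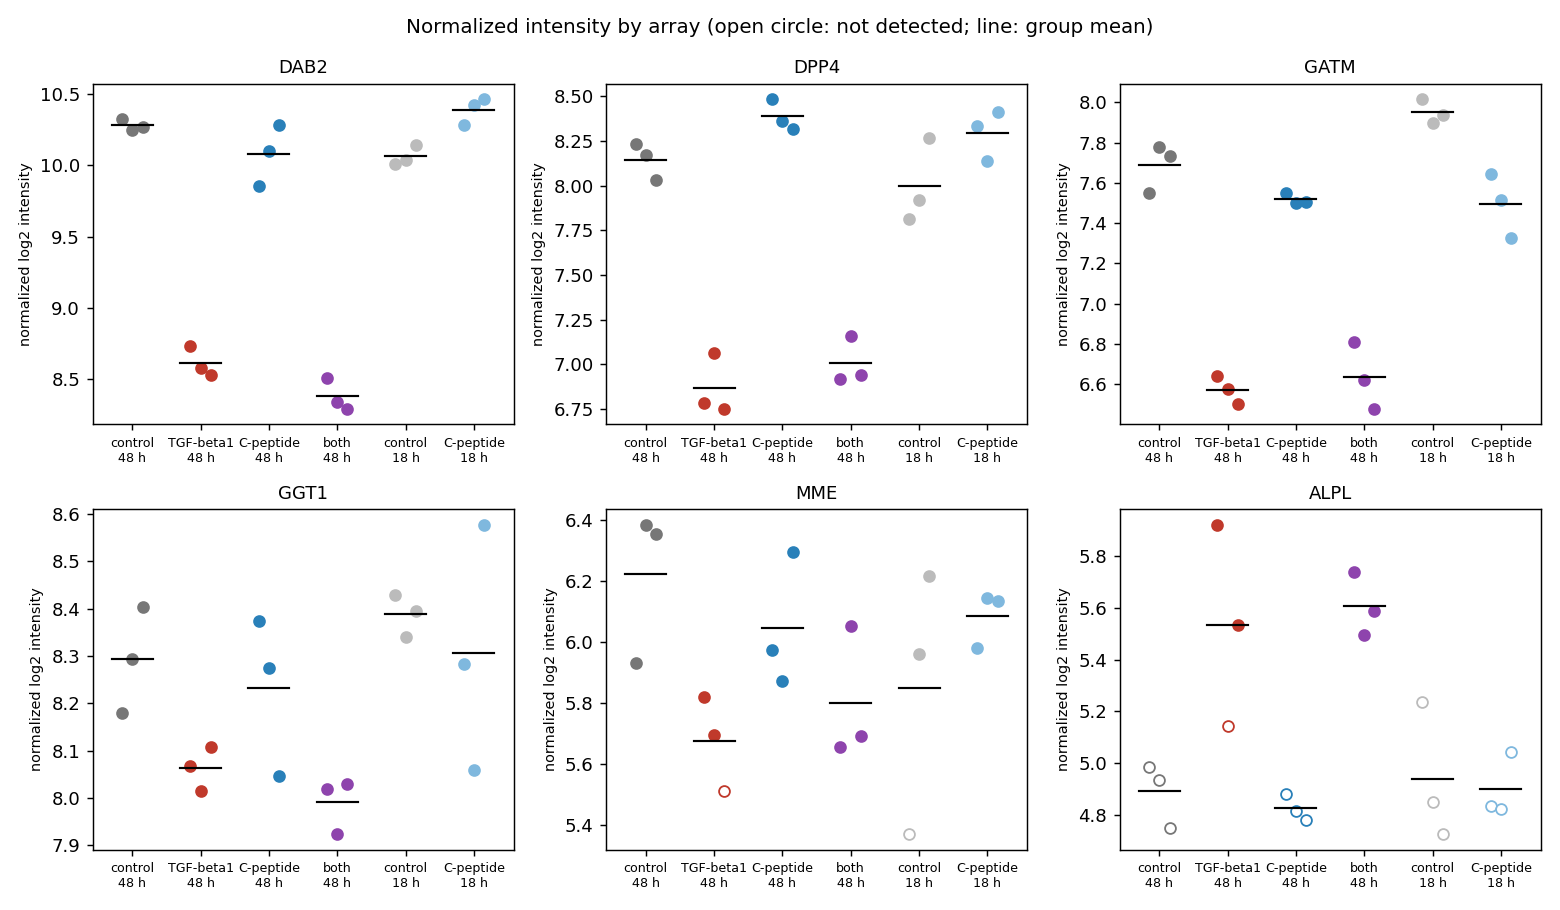
Normalized log2 intensity (vertical axes, each with its own range) of the 6 tested genes on every array, by group along the horizontal axis, with open circles for arrays on which the probe was not detected and a line at the group mean. DAB2, DPP4 and GATM lie lower in both groups with TGF-beta1 than in the other 4 groups, and ALPL lies higher there in comparison with its 48 h controls.

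The 250 bases before the RefSeq start of DAB2, DPP4 and GATM are shown because these 3 genes fell together and by the most. They lie at chr5:39424981-39425230, chr2:162074216-162074465 and chr15:45378545-45378794 of GRCh38.p14, all on the minus strand, and are written 5′ to 3′. The annotated genes span chr5:39371677-39424980, chr2:161992245-162074215 and chr15:45361124-45402227, so that the first 2 windows adjoin the gene and that of GATM lies inside its span. Capitals mark matches, on either strand, to 4 motifs chosen after the changes were known: CAGAC (SMAD box), TGANTCA (AP-1 site), GGGCGG (GC box) and CACCTG (E-box of the SNAI and ZEB repressors).
DAB2: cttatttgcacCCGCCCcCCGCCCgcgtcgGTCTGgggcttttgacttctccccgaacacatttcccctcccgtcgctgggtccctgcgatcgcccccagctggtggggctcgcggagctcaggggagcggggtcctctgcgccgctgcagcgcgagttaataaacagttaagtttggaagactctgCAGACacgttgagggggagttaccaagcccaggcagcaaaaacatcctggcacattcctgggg
DPP4: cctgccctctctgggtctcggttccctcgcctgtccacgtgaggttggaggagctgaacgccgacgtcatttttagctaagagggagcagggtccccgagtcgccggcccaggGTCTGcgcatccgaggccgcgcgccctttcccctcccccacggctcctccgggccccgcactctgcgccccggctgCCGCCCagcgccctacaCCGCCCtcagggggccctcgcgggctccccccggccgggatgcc
GATM: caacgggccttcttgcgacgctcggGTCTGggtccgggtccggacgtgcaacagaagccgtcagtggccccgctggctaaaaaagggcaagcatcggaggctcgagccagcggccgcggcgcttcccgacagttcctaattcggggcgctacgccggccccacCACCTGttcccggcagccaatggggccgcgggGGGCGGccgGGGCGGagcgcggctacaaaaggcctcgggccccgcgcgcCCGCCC
CAGAC matched 2 times in DAB2 and 1 time each in DPP4 and GATM, and 38.0% of 34788 RefSeq promoter windows hold it. GGGCGG matched 2 times in DAB2, 2 times in DPP4 and 3 times in GATM, against 42.6% of windows with a match. CACCTG matched 1 time in GATM only (17.5% of windows), while TGANTCA, in 6.6% of windows, matched in none of these 3. No matches overlapped, and a match describes letters, not binding.

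DAB2, DPP4 and GATM were also low when C-peptide was present with TGF-beta1. Against control, DAB2, DPP4, GATM and GGT1 fell with both agents and ALPL was higher, so 5 of the 6 genes were called, where 54% of all genes were called, 28.3% lower and 25.7% higher. The groups did not overlap for 5 of 6 genes, against 65.7% of all genes. Both counts hold ALPL, which entered the tests only through the groups with TGF-beta1. The controls are those of the comparison above, and both agents lie in another array set. DAB2 stood at 8.51, 8.34 and 8.29 with both agents and differed from control by -1.90 (SE 0.10, adjusted p = 5.02e-12, limma). DPP4 stood at 6.92, 7.16 and 6.94 and differed by -1.14 (SE 0.12), and GATM stood at 6.81, 6.62 and 6.48 and differed by -1.05 (SE 0.10). None of these 9 values reached the lowest 48 h control of its gene. GGT1 differed by -0.30 (SE 0.11, adjusted p = 0.0289). This call did not hold without control replicate 2 or 3, nor without replicate 1 or 2 of both agents (adjusted p = 0.0520 to 0.118, limma). ALPL was detected on 3 of 3 arrays with both agents and was at least 1.18-fold higher than in the controls. MME, at -0.42 (SE 0.18, adjusted p = 0.0542), missed the threshold.

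Within the second array set, both agents were compared with C-peptide alone. The flasks with both agents are those of the comparison with control, and the C-peptide flasks are not in it. Of the 6 genes, 3 fell and ALPL was higher, where 43% of all genes were called, 21.7% lower and 21.3% higher, and the groups did not overlap for 5 of 6 genes, against 55.4% of all genes. The count of genes without overlap also holds ALPL, which was tested only through the groups with TGF-beta1. DAB2 stood at 9.85, 10.10 and 10.29 with C-peptide alone and fell by 1.70 (SE 0.10, adjusted p = 2.88e-11, limma). DPP4 stood at 8.48, 8.36 and 8.32 with C-peptide alone and fell by 1.38 (SE 0.12, adjusted p = 1.26e-08), and GATM stood at 7.55, 7.50 and 7.51 and fell by 0.88 (SE 0.10, adjusted p = 8.35e-07). For each of these 3 genes the groups lay apart. ALPL was detected on 0 arrays with C-peptide alone and was at least 1.1-fold higher with both agents (adjusted p = 6.04e-04, limma). GGT1 differed by -0.24 (SE 0.11, adjusted p = 0.0914) and MME by -0.25 (SE 0.18, adjusted p = 0.289), and neither passed. The second GGT1 probe did pass here, at -0.36 (SE 0.12, adjusted p = 0.0184, limma).

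Whether the TGF-beta1 change differed with and without C-peptide was tested as an interaction. It was called for 0 of the 6 genes and for 0% of all genes (limma, with 388 of 12484 genes and 0 of these 6 at an unadjusted p under 0.05). The difference was -0.035 for DAB2 (95% interval -0.33 to 0.26), -0.10 for DPP4 (-0.46 to 0.25) and 0.23 for GATM (-0.076 to 0.54). It was -0.011 for GGT1 (-0.34 to 0.32), 0.30 for MME (-0.23 to 0.83) and 0.14 for ALPL (-0.34 to 0.62). These intervals do not show equal responses, since each holds differences of 0.2 or more on the log2 scale. Both agents against TGF-beta1 alone, which spans array sets, was called for 0 of the 6 genes, where 2.15% of all genes were called (limma, with 1 of the 6 at an unadjusted p under 0.05). That gene was DAB2, at -0.23 (SE 0.10, adjusted p = 0.209), and it was also the 1 gene of the 6 whose groups did not overlap, against 28.7% of all genes. The groups of the second DAB2 probe overlapped (-0.19, SE 0.11, adjusted p = 0.373, limma).

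**Figure D3:**
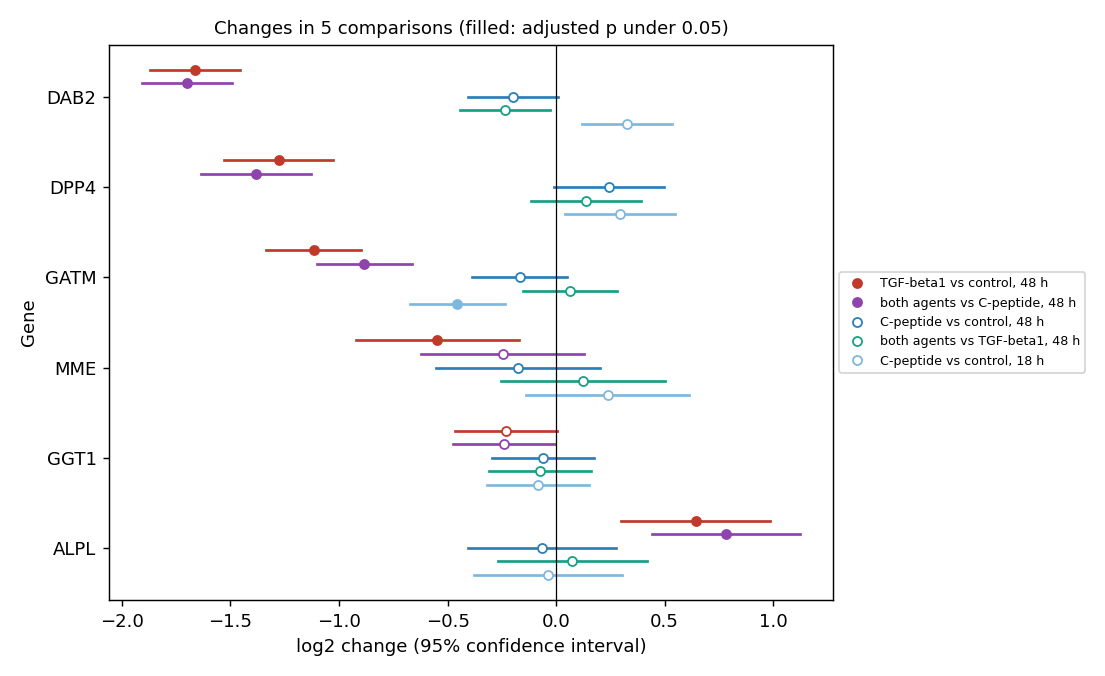
Log2 change (horizontal axis) with its 95% confidence interval for the 6 tested genes (rows) in 5 comparisons (colours), filled where the adjusted p was under 0.05. DAB2, DPP4 and GATM fell by 0.88 to 1.70 in the comparisons of TGF-beta1 within an array set, and of the C-peptide comparisons only GATM at 18 h is filled.

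C-peptide alone for 48 h changed none of the 6 genes at the threshold (0 called, where 5.33% of all genes were called, and 0 of the 6 at an unadjusted p under 0.05, limma). DAB2 differed by -0.20 (95% interval -0.41 to 0.0089), DPP4 by 0.24 (-0.0098 to 0.49) and GATM by -0.17 (-0.39 to 0.050). GGT1 differed by -0.061 (-0.30 to 0.17), MME by -0.18 (-0.55 to 0.20) and ALPL by -0.066 (-0.41 to 0.28), with ALPL not detected in either group. Among the probes that stood for the 6 genes, only that of DPP4 had groups that did not overlap, against 31.5% of all genes. The second DAB2 probe differed by -0.33 (SE 0.11, unadjusted p = 0.0088, adjusted p = 0.0849, limma). Its groups did not overlap either, but it did not pass.

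C-peptide alone for 18 h lowered GATM, and 1 of the 6 genes was called where 2.29% of all genes were, 1.15% of all genes being lower. GATM stood at 8.02, 7.90 and 7.94 in the 18 h controls and at 7.64, 7.52 and 7.32 with C-peptide, and the groups lay apart. It fell by 0.46 (SE 0.10, adjusted p = 0.0384, limma). The call was lost without control replicate 1 (adjusted p = 0.226), control replicate 2 (adjusted p = 0.140) or C-peptide replicate 3 (adjusted p = 0.0892), and when only these 2 groups were fitted (adjusted p = 0.366). DAB2 stood at 10.01, 10.03 and 10.15 in the 18 h controls and at 10.28, 10.42 and 10.46 with C-peptide, also without overlap, which held for 2 of the 6 genes against 19.3% of all genes, and its difference of 0.33 (SE 0.10, adjusted p = 0.0654) did not pass. The second DAB2 probe differed by 0.17 (SE 0.11, adjusted p = 0.369). DPP4 differed by 0.30 (SE 0.12, adjusted p = 0.143), MME by 0.24 (SE 0.18, adjusted p = 0.429) and GGT1 by -0.081 (SE 0.11, adjusted p = 0.687).

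Between the 48 h and the 18 h controls 0 of the 6 genes were called, where 0.00801% of all genes were (limma, with 2 of the 6 at an unadjusted p under 0.05). DAB2 was 0.22 higher at 48 h (SE 0.10, adjusted p = 0.209) and GATM 0.26 lower (SE 0.10, adjusted p = 0.157), the 2 genes without overlap, against 25.8% of all genes. The second DAB2 probe differed by 0.065 (SE 0.11, adjusted p = 0.767, limma), and its groups overlapped. In a contrast added after the values were seen, the C-peptide change at 48 h minus that at 18 h, 1 of the 6 genes was called, DAB2, where 8.92% of all genes were called and 4.66% were lower. Ordered by mean log2 level, DAB2 ran from 10.39 with C-peptide at 18 h through 10.28 in the 48 h controls, 10.08 with C-peptide at 48 h and 10.06 in the 18 h controls to 8.61 with TGF-beta1 and 8.38 with both agents. Of these neighbours the 48 h controls against C-peptide at 48 h and both agents against TGF-beta1 were tested, and neither passed (adjusted p = 0.242 and 0.209, limma).

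Beside DAB2, the listed receptors and endocytosis genes that passed with TGF-beta1 lay in both directions. Of 32 listed receptors and parts of the endocytic machinery 28 were tested, of which 4 rose, 8 fell and 16 did not pass, with a median of -0.19 beside -0.0058 over all genes. Over all genes 45.1% were called, 21.9% higher and 23.2% lower, so the list's share is near the background. Among receptors of the LDL receptor family, LRP5 fell by 1.12 (SE 0.14, adjusted p = 1.04e-06) and VLDLR fell by 0.69 (SE 0.12), while LRP8 rose by 0.99 (SE 0.19, adjusted p = 2.09e-04, limma). RAB5B, a GTPase of early endosomes, fell by 0.43 and its relative RAB5C rose by 0.41. Of the clathrin adaptor complex AP-2, AP2A2 fell by 0.39 while AP2S1 rose by 0.34 and AP2M1 by 0.29. LRP1 and the chloride exchanger CLCN5 were detected on 0 arrays.

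Of 30 further genes, listed as enzymes or as parts of the brush border and microvillus, 15 were detected on any array and 14 were tested. Of the 14, 2 rose, 6 fell and 6 did not pass (median -0.11), beside 21.9% higher and 23.2% lower over all genes. PDZK1, a scaffold of apical transporters, fell by 2.06 (SE 0.22, adjusted p = 1.55e-07, limma). The aminopeptidase ENPEP fell by 1.32 (SE 0.12) and PLS1, which bundles actin in microvilli, by 1.14 (SE 0.10). PROM1, a protein of membrane protrusions, was detected on 3 of 3 control and 0 of 3 TGF-beta1 arrays and was at least 1.24-fold lower. It entered the tests through groups other than TGF-beta1 alone, so its place among the 6 that fell is a description. The ectoenzyme NT5E, which makes adenosine from AMP, rose by 2.90 (SE 0.20, adjusted p = 3.97e-10), and the aminopeptidase LAP3 by 0.23 (adjusted p = 0.0483, limma). VIL1, ACE, MEP1A and SLC9A3 were detected on 0 arrays.

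Of 18 genes next to GATM and GGT1 in creatine and glutathione metabolism 12 were tested, of which 2 rose, 5 fell and 5 did not pass (median -0.14), beside the same 21.9% and 23.2% over all genes. CKB, the brain-type creatine kinase, fell by 0.95 (SE 0.10, adjusted p = 1.85e-07), and GAMT, which completes creatine synthesis after GATM, by 0.37 (adjusted p = 0.0250, limma). OPLAH, which recycles 5-oxoproline, fell by 0.81 and the glutathione synthetase GSS by 0.41. CHAC2, which degrades glutathione, rose by 0.55 and GCLM, a subunit of the enzyme that begins its synthesis, by 0.53.

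Of the 28, 14 and 12 tested members of these lists, C-peptide changed 1 at 48 h, where 5.33% of all genes were called, and 2 at 18 h, where 2.29% were. At 48 h it was EPN2, an endocytic adaptor (-0.41, SE 0.11, adjusted p = 0.0343). At 18 h they were PLS3, an actin bundler (0.56, SE 0.13, adjusted p = 0.0384), and PROM1 (0.71, SE 0.16, adjusted p = 0.0375, limma), which was detected on 1 of 3 control and 3 of 3 C-peptide arrays at 18 h. Neither 18 h call held when only these 2 groups were fitted, or without 18 h control replicate 1 or 2. In each of these fits 0 of 12484 genes were called.

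**Figure D4:**
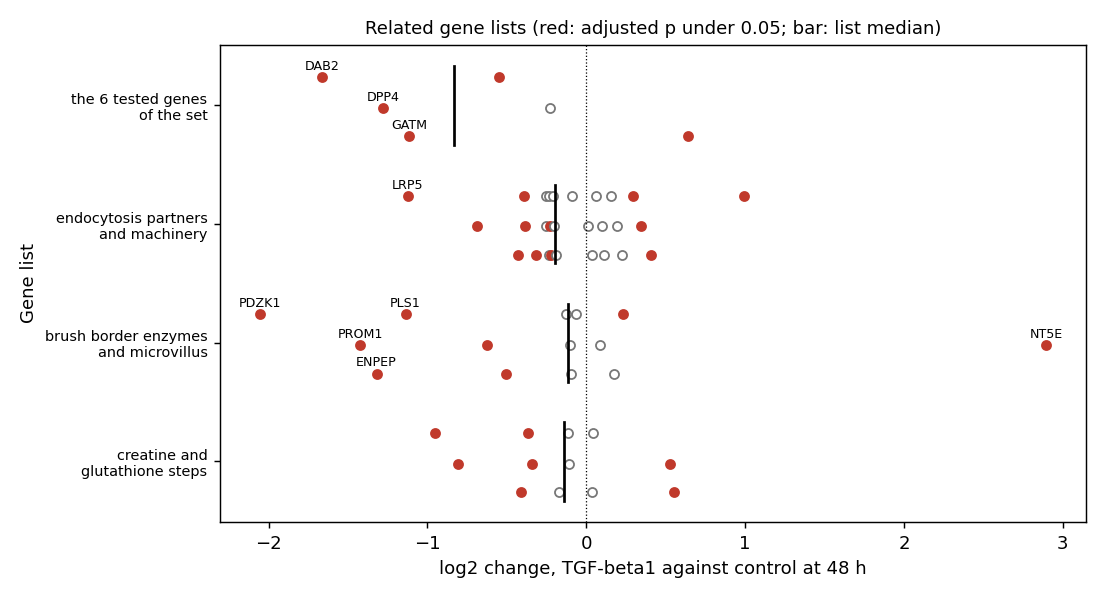
Log2 change with TGF-beta1 against the 48 h controls (horizontal axis) for the 6 tested genes and 3 related lists (rows), 1 point per gene, red where the adjusted p was under 0.05, with a bar at each list's median and names beyond a change of 1. The points lie on both sides of 0 in every row, from -2.06 for PDZK1 to 2.90 for NT5E.

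Markers of cell types moved with TGF-beta1 beside the genes above. The sums below are of unnormalized intensity, and the mean intensity of the arrays ran from 215.9 to 343.7 units, so sums also differ with the scale of an array. The summed intensity of the 12 proximal tubule markers was 1740.9 to 2086.4 in the 48 h controls, 605.9 to 751.9 with TGF-beta1, 1240.5 to 1482.4 with C-peptide, 404.6 to 513.8 with both agents, and 969.4 to 1170.1 and 1329.2 to 1475.4 in the 18 h controls and C-peptide. After normalization 0 of the 3 detected members were called between the controls (median 0.27 higher at 48 h, limma). All 3 detected members were lower with TGF-beta1: SLC4A4 and PAX8 changed by -1.63 and -1.37 on the log2 scale, and SLC3A1 was at least 1.30-fold lower (limma). Of 4 epithelial markers CDH1 (E-cadherin) changed by -3.06 and EPCAM by -1.08, whereas the keratin KRT8 rose by 0.38 and KRT18 did not pass.

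Of 7 markers of later tubule segments 2 were detected on any array, and both were lower with TGF-beta1, SCNN1A at least 5.44-fold and ATP6V1B1 at least 1.30-fold. The list summed to 293.5 to 382.3 in the 48 h controls, 24.9 to 38.9 with TGF-beta1, 178.1 to 289.2 with C-peptide and 14.7 to 26.7 with both agents. Of 6 fibroblast markers 4 were detected on any array, PDGFRB was at least 1.5-fold higher and DCN rose by 0.76, the list summed to 2131.9 to 2299.7 in the controls and 2214.9 to 2574.6 with TGF-beta1, and COL1A2 and COL3A1 were detected on 0 arrays. Of 4 leukocyte markers CSF1R alone was detected, at least 3.82-fold higher with TGF-beta1, with list sums of 17.9 to 34.0 in the controls and 166.2 to 239.2 with TGF-beta1 and 113.4 to 163.3 with both agents, while PTPRC, CD14 and CD3E were detected on 0 arrays. Of 4 endothelial markers PECAM1 was at least 1.17-fold higher, with VWF, CDH5 and KDR on 0 arrays. The sum of this list was not higher: 36.5 to 51 in the controls, 30.8 to 42.9 with TGF-beta1 and 22.1 to 33.3 with both agents. The 3 podocyte markers were on 0 arrays. Markers with a change of at least a stated fold, SLC3A1 among them, were not detected in 1 of the 2 groups compared. That group could not bring them into the tests, so their directions are descriptions, as for ALPL. In the other group, any array without detection entered at its measured value, and there the stated fold is not a strict bound. The part of these markers in the changes of the 10 genes was not tested.

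The genes whose levels ran most like those of the 4 genes detected throughout were found by Pearson correlation of log2 values over the 18 arrays among 12484 genes. The arrays share groups and sets, so the values are descriptions. DAB2 was closest to TJP3, HS.25318 and IRF2BP2 (r = 0.99 for each), and DPP4 to CITED2, PDK4 and ZSCAN31 (r = 0.97 for each). GATM was closest to TAGLN3 (r = 0.98), FLJ10916 and AVPI1 (r = 0.97 for both), and GGT1 to TRIM25, WDR45 (r = 0.90 for both) and DERPC (r = 0.89).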

How the data were processed

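Total RNA of 18 flasks was hybridised to 18 arrays, and p-values measure the spread between these flasks. The deposited bead intensity was exported from GenomeStudio 1.1.1 with no normalization, per the file headers. Between 23.4% and 28.1% of an array's values were below 0. The deposited detection value is a fraction, 1 minus the detection p. The deposited bead SD (intensity units) and number of beads, with a median of 40 to 42 per probe, were read as a check. The authors' normalized intensity, deposited as another table, was used as an alternative. A further 72 per-array columns (minimum, maximum, number of arrays, SD over arrays) were not used. Genome build and probe sequences are not given in the sources used here, and coordinates and promoters are those of RefSeq.

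Background correction and scaling used the neqc function (limma 3.58.1, R 4.3.3; offset 16, quantile normalization, log2). Probes with a detection p under 0.01 on at least 3 arrays were kept, and the brightest stood for its gene. Symbols were current for 21919 probes, updated for 3799 and kept for 23085. Group means were fitted to all 18 arrays (lmFit, contrasts.fit, eBayes with trend, 12 residual degrees of freedom), and two-sided p-values were adjusted by Benjamini-Hochberg over 12484 genes within each of 9 comparisons. They were not adjusted across comparisons. The code was tested on simulated data. Precision is limited by having 3 arrays in each group.

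The 10 genes, the lists and the tests were chosen with earlier results of these data known. The contrast of the 48 h and 18 h responses to C-peptide, the 3 promoters and the 4 motifs were chosen after values were seen. A few list members and 1 further motif are not reported here. Named were all 10 genes, up to 4 members per list and direction with the largest TGF-beta1 change among those passing, list members passing for C-peptide, and the 3 genes most correlated with each gene detected on all arrays. Other named list members were chosen after their values were seen. Alternatives changed the background correction, scaling, filter, probe rule, arrays fitted, weights, trend and replicate block, and left out each array.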

Additional observations from a re-analysis of the deposited data

Results flagged for a closer look

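The C-peptide change of DAB2 differed between the times: it was -0.20 at 48 h and 0.33 at 18 h, a difference of -0.53 on the log2 scale (SE 0.14, 95% interval -0.82 to -0.23, adjusted p = 0.0288, limma). This comparison was added after the values were seen, and 8.92% of all genes were called in it. The other 5 tested genes were not called (adjusted p = 0.203 to 0.950). The second DAB2 probe gave -0.49 (SE 0.16, adjusted p = 0.0543) and missed the threshold. The call was kept in 6 of 12 fits that left out an array, with adjusted p from 0.0121 to 0.0902, and was lost without control replicate 1 or 3 at 48 h, control replicate 1 or 2 at 18 h, or C-peptide replicate 1 or 2 at 48 h. The 48 h groups lie in different array sets, so that C-peptide and set cannot be told apart in that arm.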

How the results depend on the processing

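DAB2, DPP4 and GATM kept their direction and their call under all 16 alternatives in each of the 3 comparisons of TGF-beta1. DAB2 against control ranged from -1.72 to -1.56, DPP4 from -1.41 to -1.02, and GATM from -1.26 to -0.84. ALPL (0.31 to 0.90) was tested only through the groups with TGF-beta1. Against control, MME was called in 13 of 16 and GGT1 in 2 of 16 for TGF-beta1, and in 7 and 11 of 16 for both agents. The GATM call at 18 h held in 10 of 16 (-0.53 to -0.30), and was lost with median scaling (-0.30, adjusted p = 0.179) and without the filter (adjusted p = 0.0869). At a detection p under 0.05 the number of probes detected everywhere was 8 instead of 6. Below, the cause of each shift was not tested.

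Median scaling in place of quantile normalization moved the median of all genes by -0.28 in both agents against control, -0.11 against C-peptide, -0.22 against TGF-beta1, -0.17 and 0.12 in C-peptide at 48 h and 18 h, 0.36 between the controls and -0.30 in the difference between times. The number of the 6 genes called became 1 for C-peptide at 48 h, 0 at 18 h, 2 for both agents against TGF-beta1 and 4 between the controls. Changes that turned sign were, at 18 h, GGT1 (0.071). In both agents against TGF-beta1 they were DPP4 (-0.13), MME (-0.077), ALPL (-0.10) and GATM (-0.19). Between the controls they were GGT1 (0.30, adjusted p = 0.0345), ALPL (0.058) and GATM (0.13), and between times GGT1 (-0.34) and GATM (-0.057). Relative to the median gene 9 of these 10 changes had the sign found with quantile normalization, such as DPP4 (0.11) and MME (0.16) in both agents against TGF-beta1. GGT1 between times did not (-0.026).

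For C-peptide at 18 h the number called was 0 without the detection filter, 0 with only the groups compared and 2 with array weights. For the difference between times it was 0 and 0 under the first 2 of these, and between the controls it was 2 with array weights. With array weights the interaction for DAB2 was 0.010 and ALPL between times 0.0070, and in the authors' table ALPL between times was 0.12. ALPL has no value for C-peptide at 48 h in that table, where all its arrays lie at the floor.

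Leaving out 1 array gave 0 to 3 called for C-peptide at 18 h and 0 to 1 for the difference between times. Uncalled changes that turned sign spanned -0.15 to 0.067 (DAB2), -0.10 to 0.060 (GGT1) and -0.053 to 0.34 (ALPL) in the interaction. In C-peptide at 18 h they spanned -0.22 to 0.042 (GGT1), -0.0023 to 0.42 (MME) and -0.14 to 0.11 (ALPL), and at 48 h -0.13 to 0.032 (GGT1). In both agents against TGF-beta1 they spanned -0.0023 to 0.20 (MME), -0.12 to 0.27 (ALPL) and -0.022 to 0.14 (GATM), between the controls -0.15 to 0.10 (ALPL), and between times -0.10 to 0.16 (GGT1), -0.19 to 0.041 (DPP4) and -0.18 to 0.078 (ALPL).

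Replicate numbers did not pair the arrays: in no comparison were all 3 correlations of same-numbered deviations over 0.1, and 3 of 18 arrays matched their own number best. With the replicate block, MME in both agents against control passed (-0.42, adjusted p = 0.0402) and no other call among the 6 genes changed. A random block on array set was not run, since each group lies in 1 set.

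Over all genes, the 665 calls for C-peptide at 48 h became 2337 with median scaling, 1117 with every probe tested, 1310 with only the groups compared and 3145 with array weights. The 286 calls at 18 h became 513, 0 with only the groups compared, 17 without the filter, 1124 with weights and 547 with the block. The 268 calls for both agents against TGF-beta1 became 2998, 516, 857, 1441 and 165 (scaling, every probe, only these groups, weights, no filter). The single call between the controls became 7251 with median scaling, 2922 with weights, 136 with only these groups, 86 with the block, 14 in the authors' table, 2 with normexp or no trend, and 0 without the filter. The 1114 calls between times became 3482, 3369, 480 and 237 (scaling, weights, no filter, only these groups). Median scaling changed the split of higher and lower calls from 3214 and 3529 to 1323 and 6085 for both agents against control, from 2657 and 2707 to 1603 and 3149 against C-peptide, from 187 and 81 to 73 and 2925 against TGF-beta1, from 477 and 188 to 205 and 2132 for C-peptide at 48 h, from 143 and 143 to 501 and 12 at 18 h, from 0 and 1 to 7246 and 5 between the controls, and from 532 and 582 to 74 and 3408 between times.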
